A study of Drosophila melanogaster with 12 samples.

Results

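The nuclear-encoded subunits of the mitochondrial respiratory chain and of ATP synthase were examined in the head transcriptomes of a *Drosophila* Alzheimer's disease (AD) model. They were taken by gene symbol, as all genes whose symbol starts with ND-, UQCR-, ATPsyn or COX followed by a digit of 4 to 8, together with SdhA to SdhD, which gave 79 of the 14162 genes in the count table. Of these, 36 belong to complex I, 4 to complex II, 9 to complex III, 15 to complex IV and 15 to ATP synthase. The 18 whose symbol ends in L, L1 or L2 are called L paralogs below, and the other 61 are called main subunit genes. There were 12 samples in 4 groups of 3, each of 20 heads from mated females kept at 29 °C. AD flies (nSyb>Abeta42) expressed a secreted Arctic form of human Aβ42 in all neurons, AD + Yip7 flies (nSyb>Abeta42+yip7) additionally carried the HA-tagged serine protease Yip7, and AD + Yip7∆S flies (nSyb>Abeta42+yip7_S) carried a tagged Yip7 without its putative transmembrane domain. Control flies (nSyb>w1118) carried the same pan-neuronal nSyb-Gal4 driver and no UAS transgene, so that AD and Control differ in the presence of a transgene as well as in the peptide. The flies were 10 days old by their labels, except that the label of Control replicate 3 gives 2 weeks. The tissue label is head, although the descriptions mention brain dissection. The neuronal, glial, photoreceptor, muscle and fat body marker genes were all detected, as in whole heads.

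Oxidative phosphorylation is carried out by multi-subunit complexes of the inner mitochondrial membrane. Complex I takes electrons from NADH and complex II from succinate, complex III passes them to cytochrome c, and complex IV hands them to oxygen. The proton gradient built on the way drives ATP synthase, a rotary enzyme with a membrane-embedded ring of c subunits and a catalytic head. Most subunits are encoded in the nucleus and a few in mitochondrial DNA, while complex II is encoded in the nucleus alone. Neurons and photoreceptors depend strongly on this pathway for ion pumping. In *Drosophila*, several subunits have a second gene copy, and many of these copies are known mainly from the testis.

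Each library held between 38064884 and 41737332 counted reads, and the 79 genes took between 1.02% and 1.27% of them. No pair of replicates agreed within sampling noise. The *yip7* gene itself was at 156, 159 and 94.2 CPM (normalized counts, scaled to TMM-adjusted library totals) in AD, at 135, 173 and 123 CPM in AD + Yip7, at 73.7, 88.1 and 81.1 CPM in AD + Yip7∆S, and at 5.97, 0 and 6.07 CPM in Control. The *yip7* counts therefore separated the Aβ42 groups from Control but did not set AD + Yip7 apart from AD. Reads of the endogenous gene and of the transgene cannot be told apart in these counts. The level of a gene varied with its exonic length, most steeply in 2 libraries, AD replicate 3 and AD + Yip7∆S replicate 3. Relative to the Control mean, genes of over 800 and up to 1200 bases other than the subunits had a median log2 level of 0.24 in AD replicate 3 and 0.20 in AD + Yip7∆S replicate 3, against −0.03 to 0.08 in the other 10 libraries. Genes of over 5000 bases were at −0.54 and −0.34 in these 2 libraries and between −0.18 and 0.05 in the others. The median of genes of up to 500 bases exceeded that of genes of over 5000 bases by 0.83 and 0.74 in these 2 libraries. The same difference was 0.27 and 0.16 in AD replicates 1 and 2, 0.10, 0.18 and 0.24 in the 3 AD + Yip7 libraries, 0.02 and 0.09 in replicates 1 and 2 of AD + Yip7∆S, and −0.07, 0.10 and −0.04 in Control. The main subunit genes are short, with a median exonic length of 879.5 bases over the 60 that passed the count filter, and 56 of these are 2000 bases or less. The counts of called genes are therefore also given without these 2 libraries, and with the length trend taken out of each of the 12 libraries. Taking it out also removes any difference between groups that varies with length.

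**Figure D1:**
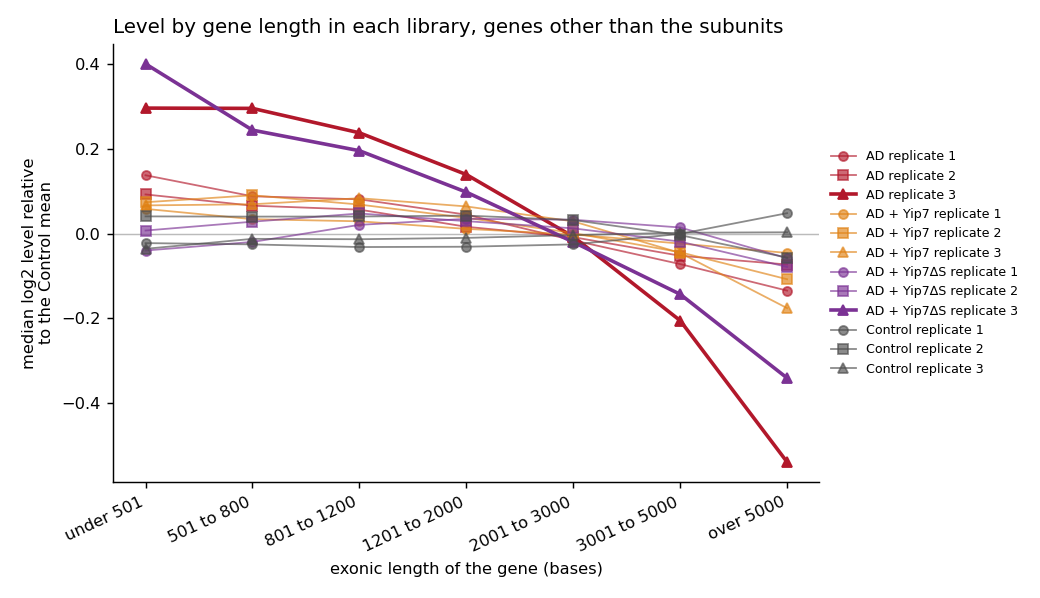
Median log2 level relative to the Control mean (y axis) of genes other than the subunits, in 7 classes of exonic length in bases (x axis), with 1 line for each of the 12 libraries, coloured by group and marked by replicate. AD replicate 3 and AD + Yip7∆S replicate 3 (thick lines) run down across the length classes, to −0.54 and −0.34 over 5000 bases, while the other libraries stay between −0.18 and 0.05 there.

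Nearly all main subunit genes were abundantly expressed in heads. Of the 79 genes, 66 passed the count filter, of which 60 were main subunit genes and 6 were L paralogs. Per kilobase of exon, the median level over the 12 samples was 255 RPKM for complex IV (7 genes), 236 RPKM for ATP synthase (11 genes), 152 RPKM for complex III (6 genes), 122 RPKM for complex II (4 genes) and 99.7 RPKM for complex I (32 genes). The ring subunit gene *ATPsynC* was the highest of all at 711 RPKM, followed within ATP synthase by *ATPsynbeta*, which encodes the catalytic β subunit, at 442 RPKM. In complex III the core protein genes *UQCR-C1* and *UQCR-C2* were at 305 and 234 RPKM, and the hinge protein gene *UQCR-11* was at 36.4 RPKM. In complex I the levels ran between 46.7 RPKM for *ND-AGGG* and 275 RPKM for *ND-51*, which encodes the flavoprotein that binds NADH. In complex IV the 7 main genes lay within 1.70-fold of each other, between *COX7C* at 176 RPKM and *COX6B* at 300 RPKM, and in complex II the 4 genes lay within 1.57-fold, between *SdhD* at 110 RPKM and *SdhB*, the iron-sulfur subunit, at 173 RPKM. The 6 tested L paralogs stayed under 6 RPKM. *COX7AL2* was the highest of them at 5.46 RPKM, and its CPM was 2.90% of that of *COX7A*.

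**Figure D2:**
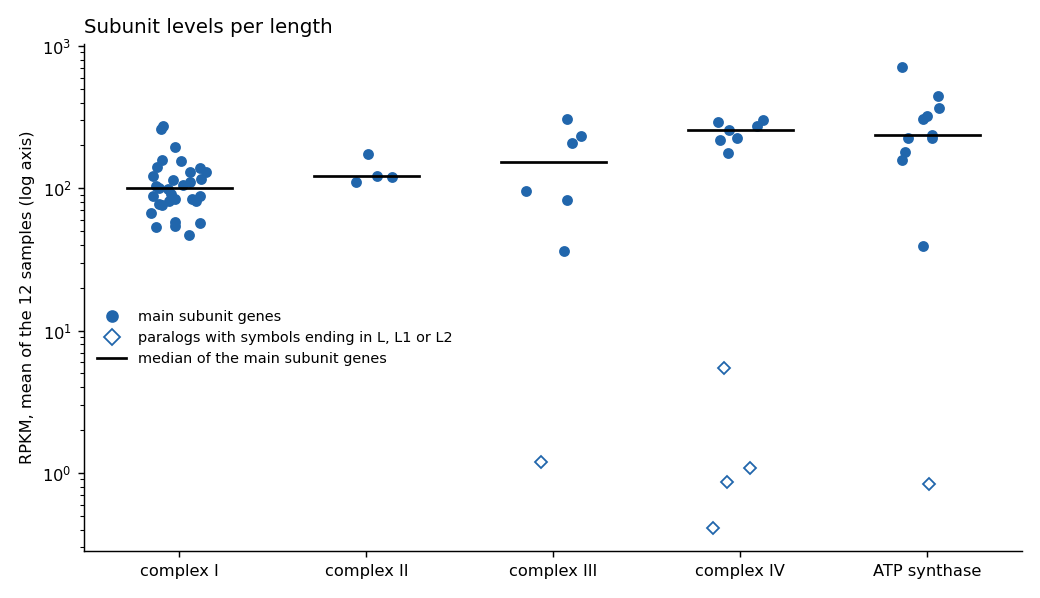
Level of each of the 66 tested genes in RPKM, the mean of 12 samples on a log axis, by complex, with main subunit genes as filled circles, L paralogs as open diamonds and the median of the main subunit genes as a bar. The medians run between 99.7 RPKM (complex I) and 255 RPKM (complex IV), *ATPsynC* stands highest at 711 RPKM, and every L paralog lies below all main subunit genes.

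The 13 genes under the count filter were *ATPsynbetaL*, *ATPsynCF6L*, *ATPsynGL*, *COX5BL*, *COX6AL*, *COX6AL2*, *COX6CL*, *ND-49L*, *ND-51L1*, *ND-51L2*, *ND-B8*, *UQCR-14L* and *UQCR-6.4L*. All but *ND-B8* are L paralogs, with at most 17 counts in any library. *ND-B8*, a main subunit gene of complex I on chromosome 2L (dm6, 4454626 to 4455207), had 2 counts in all 12 libraries together, and 15.4% of its 460 exonic bases are shared with the antisense gene *Gs1l*. The counting rule for strands is not given, so reads of overlapping antisense genes cannot be told apart here. This applies most to *UQCR-14*, whose exonic bases are all shared with the antisense gene *CG32576*, and to *COX5BL*, whose exonic bases are all shared with the antisense gene *Trmt6*.

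The main subunit genes of the 5 complexes moved together from library to library. On a log2 scale relative to the Control mean, the mean over the 60 genes was −0.12, −0.16 and 0.05 in AD replicates 1, 2 and 3, and −0.17, −0.10 and −0.14 in AD + Yip7. It was −0.28, −0.26 and 0.05 in AD + Yip7∆S, and −0.02, 0.04 and −0.02 in Control. All Aβ42 libraries thus lay below the 3 Control libraries except for AD replicate 3 and AD + Yip7∆S replicate 3, which are the 2 libraries with the steepest length trend. Within AD, 57 of the 60 genes were highest in replicate 3, and within AD + Yip7∆S 56 of 60 were. The median coefficient of variation over the 60 genes was 8.57% in AD and 14.5% in AD + Yip7∆S, against 3.56% in AD + Yip7 and 3.77% in Control. The group means of the 60-gene level were −0.08 ± 0.11 in AD, −0.13 ± 0.04 in AD + Yip7, −0.17 ± 0.19 in AD + Yip7∆S and 0 ± 0.04 in Control (SD, n = 3 each). Across the 12 samples, the mean levels of any pair of complexes correlated with Pearson's r of 0.89 to 0.98. These values describe libraries in which all complexes share the same depth and length trend.

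**Figure D3:**
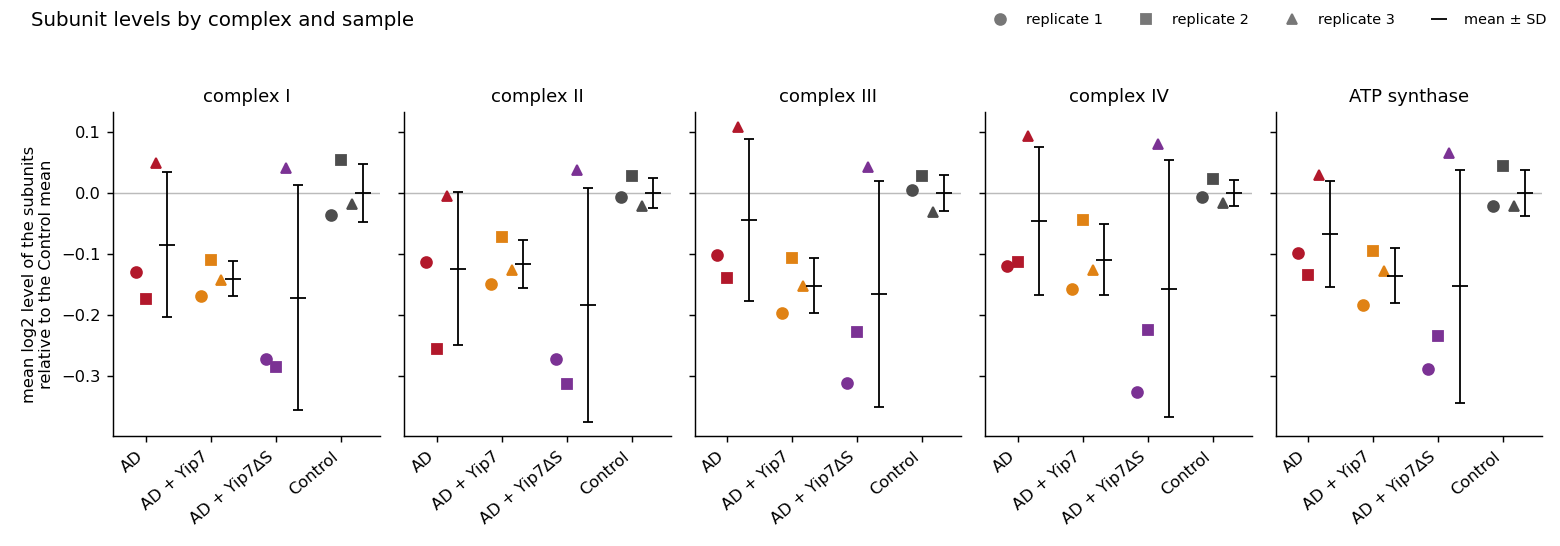
Mean log2 level of the main subunit genes of each complex relative to the Control mean (y axis), for AD, AD + Yip7, AD + Yip7∆S and Control, with 1 point per sample shaped by replicate and the mean ± SD of 3 samples in black. In every complex, replicates 1 and 2 of AD and AD + Yip7∆S and all 3 AD + Yip7 samples lie below the Control samples, while replicate 3 of AD and of AD + Yip7∆S (triangles) lies above the others of its group.

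Pan-neuronal Aβ42 expression was accompanied by few changes of these genes past the threshold. In AD vs. Control, the quasi-likelihood test of edgeR, with p-values adjusted by Benjamini-Hochberg and a threshold of 0.05, called 4 of the 66 tested genes. *ND-18*, *SdhA* and *COX4L* fell and *COX7AL* rose, while 26% of all 10577 tested genes were called and 11.6% were called lower. Of the 60 main subunit genes 47 had a log2 fold change below 0, but the estimates were small, with a lowest of −0.32 for *ND-18*, a highest of 0.13 for *UQCR-6.4* and a median of −0.06. By complex the median was −0.06 for complex I, −0.07 for complex II, −0.03 for complex III, −0.06 for complex IV and −0.08 for ATP synthase. With upper quartile normalization in place of TMM, the median of the 66 tested genes was 0.01, while that of all genes moved to 0.06. The 95% interval of every one of these 60 genes lay within 1.5-fold up or down, against 49.6% of all tested genes. The samples of AD and Control did not overlap for 13 of the 66 genes, 11 lower and 2 higher in AD, and for 44% of all genes. The 2148 tested genes of over 500 and up to 1200 bases were called higher 462 times and lower 151 times, and their median was 0.14. This set includes the subunit genes of that length, and main subunit genes of other lengths fall outside it. Heads are a mixture of tissues, and in such bulk samples fewer cells of a type and less RNA per cell cannot be told apart.

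**Figure D4:**
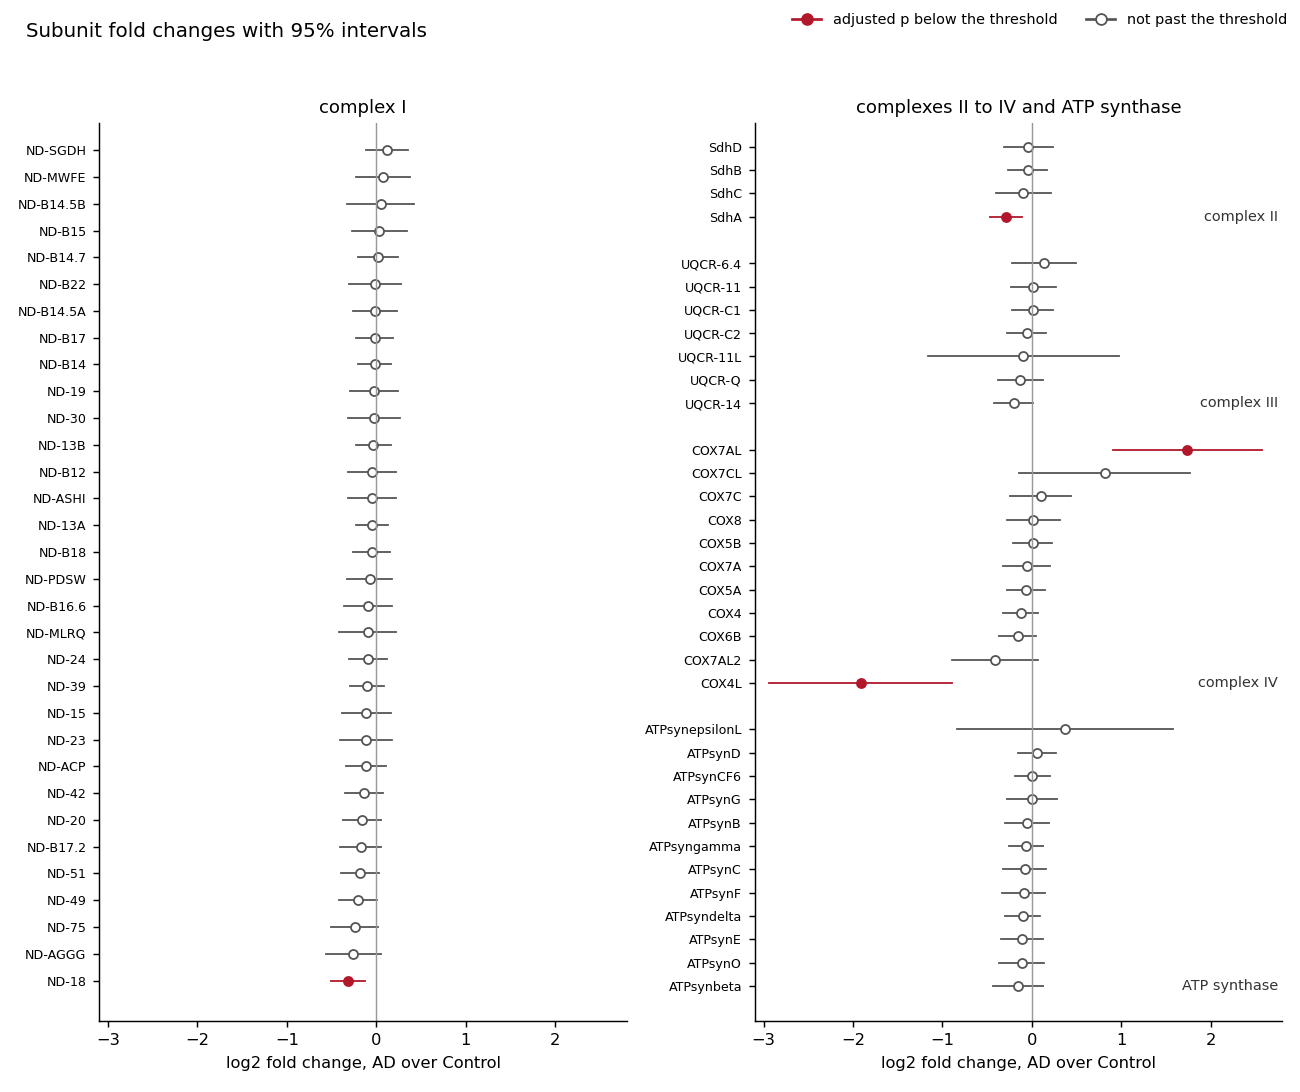
Log2 fold change of AD over Control (x axis, points) with its 95% interval (lines) for the 66 tested genes, complex I on the left and the other complexes on the right. The main subunit genes lie between −0.32 and 0.13. *ND-18* and *SdhA* are called lower (filled), and of the L paralogs *COX4L* is called lower and *COX7AL* higher.

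In complex I, 1 of 32 main genes was called. *ND-18* on chromosome X (dm6, 19492421 to 19493337, plus strand) is the fly counterpart of human NDUFS4, an accessory subunit of the electron input module. It was at 66.5, 70.9 and 78.0 CPM in AD, at 83.1, 82.9 and 76.7 CPM in AD + Yip7, at 65.5, 62.8 and 58.4 CPM in AD + Yip7∆S, and at 85.6, 94.1 and 89.7 CPM in Control. The samples of all 3 Aβ42 groups were below all Control samples, those of AD + Yip7∆S were below all AD samples, and those of AD + Yip7 overlapped with AD. In AD vs. Control the log2 fold change was −0.32 ± 0.09 (SE; edgeR adjusted p = 0.0171). Without AD replicate 1, Control replicate 2 or Control replicate 3 the adjusted p was 0.0705, 0.0687 and 0.0539, and with upper quartile normalization it was 0.0716. Of the other complex I genes, *ND-51*, the highest by CPM, was at 432, 396 and 457 CPM in AD and at 461, 512 and 489 CPM in Control, a log2 fold change of −0.19 ± 0.10 (SE; edgeR adjusted p = 0.187). *ND-AGGG* had a log2 fold change of −0.26 and *ND-75*, which encodes the largest iron-sulfur subunit, one of −0.24, and both missed the threshold (edgeR adjusted p = 0.202 and 0.161).

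The conserved core of complex I that carries electrons to ubiquinone has 7 nuclear-encoded subunits, *ND-75*, *ND-51*, *ND-49*, *ND-30*, *ND-24*, *ND-23* and *ND-20*. All 7 had estimates below 0 in AD vs. Control, between −0.24 for *ND-75* and −0.03 for *ND-30*, and none was called. *ND-49*, which helps to form the ubiquinone pocket, was at 205, 186 and 210 CPM in AD and at 223.5, 233 and 235 CPM in Control, without overlap, and its log2 fold change was −0.20 ± 0.10 (SE; edgeR adjusted p = 0.144). *ND-20*, which carries the last iron-sulfur cluster before ubiquinone, was at 137, 129 and 144 CPM in AD and at 155, 152.3 and 152.6 CPM in Control, again without overlap, with a log2 fold change of −0.16 (edgeR adjusted p = 0.242). The same 7 genes lay, on the log2 scale of AD + Yip7 vs. AD, between −0.08 for *ND-23* and 0.06 for *ND-75*, and in AD + Yip7∆S vs. AD between −0.24 for *ND-24* and 0.05 for *ND-49*, with none called in either comparison. Within AD + Yip7∆S, *ND-23* was at 106.0, 106.2 and 156 CPM in replicates 1, 2 and 3, and *ND-20* was at 124, 121 and 155 CPM. Both were highest in replicate 3, whereas *ND-75* and *ND-24* were lowest there.

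In complex II, which also works in the citric acid cycle, 1 of 4 genes was called. *SdhA* on chromosome 2R (dm6, 19391863 to 19395971, minus strand) encodes the flavoprotein that oxidizes succinate. It was at 319, 315 and 312 CPM in AD, at 329, 341 and 308 CPM in AD + Yip7, at 295, 288 and 320 CPM in AD + Yip7∆S, and at 395, 380.3 and 379.7 CPM in Control. Every sample with Aβ42 was below every Control sample. In AD vs. Control its log2 fold change was −0.29 ± 0.08 (SE; edgeR adjusted p = 0.0218). *SdhA* has 2750 exonic bases, and it is the single main subunit gene that was lowest in replicate 3 of AD. The call was lost, with adjusted p of 0.0530 to 0.0795, without AD replicate 1 or 2 or any of the 3 Control replicates, and it was 0.0958 with upper quartile normalization. The other 3 genes, *SdhB* and the membrane anchors *SdhC* and *SdhD*, were not called, with 4 of 4 complex II estimates below 0 and *SdhD* nearest to it at −0.04.

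No main gene of complex III, complex IV or ATP synthase was called in AD vs. Control. *UQCR-C1* was at 498, 467 and 584 CPM in AD and at 493, 540 and 508 CPM in Control, and its log2 fold change was 0.01 with a 95% interval of −0.22 to 0.24. *COX4*, which encodes a nuclear subunit of cytochrome c oxidase, was at 323, 328 and 352 CPM in AD, all below the 370, 371 and 355 CPM in Control, with a fold change of −0.13 and an interval of −0.32 to 0.07. *ATPsynC* was at 1329, 1272 and 1424 CPM in AD and at 1490, 1416 and 1354 CPM in Control, with a fold change of −0.08 and an interval of −0.32 to 0.16. These intervals leave room for changes of up to about the size seen for *SdhA*. The lowest estimates of the 3 complexes were −0.21 for *UQCR-14*, −0.16 for *COX6B* and −0.16 for *ATPsynbeta*. *COX6B*, a subunit on the cytochrome c side of the enzyme, was at 217, 230.2 and 254 CPM in AD, all below the 259, 268 and 257 CPM in Control (edgeR adjusted p = 0.227). *ATPsynO*, part of the stator that holds the catalytic head, was at 234, 234.5 and 268 CPM in AD and at 269, 273 and 255 CPM in Control, with replicate 3 of AD inside the Control range. Of the 11 ATP synthase genes 9 had estimates below 0, and for *ATPsyndelta* alone the groups did not overlap.

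The 2 largest fold changes belonged to L paralogs of complex IV with few reads. *COX4L* on chromosome 2R (dm6, 5353994 to 5354723) had 3, 9 and 11 counts in AD, 10, 7 and 8 counts in AD + Yip7, and 3, 2 and 6 counts in AD + Yip7∆S, against 29, 36 and 23 counts in Control. All 9 samples with Aβ42 were below the 3 Control samples, and the difference between AD and Control was −1.91 ± 0.47 on the log2 scale (SE; edgeR adjusted p = 0.0100). *COX7AL* on chromosome 3R (dm6, 8343669 to 8344310) had 33, 25 and 29 counts in AD, 22, 36 and 18 counts in AD + Yip7, and 35, 37 and 47 counts in AD + Yip7∆S, against 12, 8 and 6 counts in Control. All samples with Aβ42 were above the Control samples, and the difference between AD and Control was 1.74 ± 0.38 on the log2 scale (SE; edgeR adjusted p = 0.00555). *COX4* and *COX7A* themselves did not pass the test, and *COX4L* and *COX7AL* reached 0.0895% and 0.355% of the counts of *COX4* and *COX7A* summed over all samples. *COX7A* lies near *COX7AL* on the opposite strand of chromosome 3R (8339944 to 8341043). The presence of a transgene and of the peptide cannot be told apart in these comparisons with Control.

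**Figure D5:**
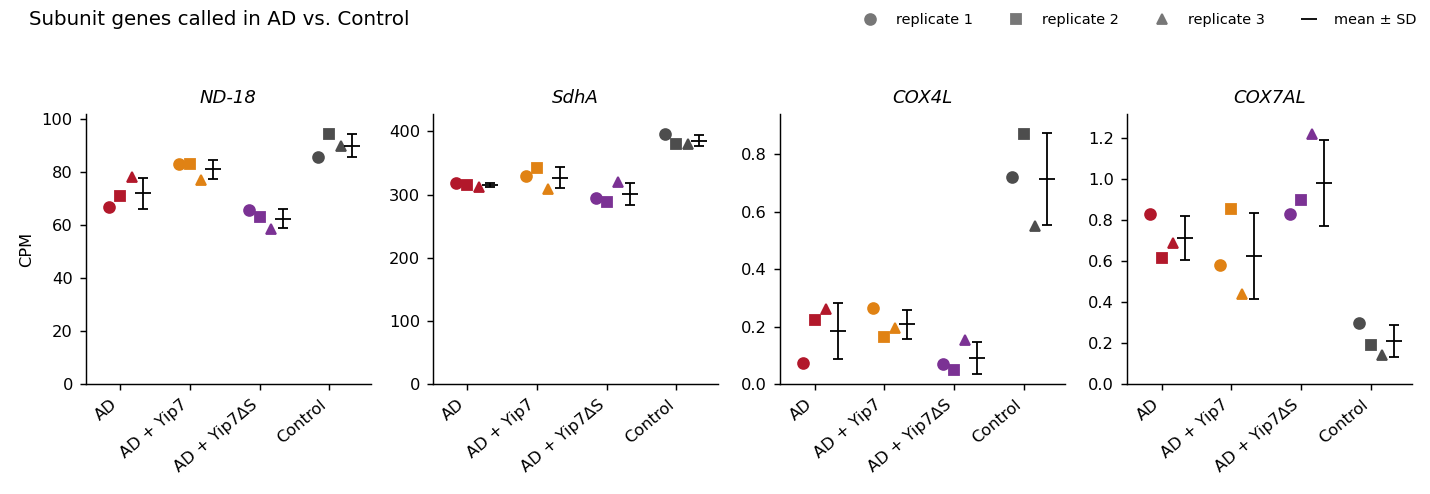
CPM (y axes, starting at 0) of *ND-18*, *SdhA*, *COX4L* and *COX7AL* in AD, AD + Yip7, AD + Yip7∆S and Control, with 1 point per sample and the mean ± SD of 3 samples. The Control samples are highest for *SdhA* and *COX4L* and lowest for *COX7AL*, and *ND-18* is lowest in AD + Yip7∆S.

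The number of subunit genes called lower was larger under 2 settings that address the length trend. With each library's length trend taken out, 25 of 66 genes were called in AD vs. Control, 24 of them lower, against 28.4% of all genes, and the median fold change of the 66 was −0.18. They included 14 complex I genes, such as *ND-20*, *ND-49* and *ND-51*, 3 ATP synthase genes (*ATPsynE*, *ATPsynF* and *ATPsynO*), 2 complex III genes (*UQCR-14* and *UQCR-Q*), and *COX4*, *COX5A* and *COX6B* of complex IV. Without AD replicate 3 and AD + Yip7∆S replicate 3, 11 genes were called, 10 of them lower, against 28% of all genes. Of these 11 genes, 10 were also among the 25. All 4 genes of the fit on 12 samples were called in both. Both settings were chosen after the data had been seen, and what makes their counts differ from each other was not tested. The genes called lower were 36.4% of the tested subunit genes with the length trend taken out, where 13% of all genes were called lower, and 14.9% without the 2 libraries, where 12.7% of all genes were. On all 12 libraries as they are, the share was 4.55%, against 11.6% of all genes.

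Adding Yip7 to AD flies brought no change past the threshold in any of these genes. In AD + Yip7 vs. AD, edgeR called 0 of 66 genes, against 1.81% of all genes, and 1 gene had an unadjusted p below 0.05, as had 13.1% of all genes. The median log2 fold change was −0.06, and 59 of the 60 main subunit genes had a 95% interval within 1.5-fold. The exception was *UQCR-11*, the hinge protein gene of complex III, which was at 47.4, 50.7 and 48.0 CPM in AD + Yip7, all below the 62.1, 58.1 and 64.3 CPM in AD. Its fold change was −0.34 ± 0.12 (SE; edgeR adjusted p = 0.214), and DESeq2 on the 6 samples called it. *ND-18* had a fold change of 0.17 with an interval of −0.02 to 0.36, *SdhA* one of 0.05 with an interval of −0.13 to 0.23, and *COX4L* and *COX7AL* had intervals of −0.98 to 1.28 and −0.93 to 0.57. With the length trend taken out, the median over the 66 genes moved to 0.0014 and again 0 genes were called.

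Yip7∆S did not change any of these genes past the threshold either. In AD + Yip7∆S vs. AD, edgeR called 0 of 66 genes, against 1.85% of all genes, with 8 genes at an unadjusted p below 0.05 (15.1% of all genes), all lower, and a median of −0.09. The lowest main subunit gene was the core protein gene *UQCR-C2*, at 344, 351 and 319 CPM in AD + Yip7∆S, all below the 383, 387 and 473 CPM in AD. Its fold change was −0.29 ± 0.10 (SE; edgeR adjusted p = 0.180), and DESeq2 on all 12 samples called it. In AD + Yip7 vs. AD + Yip7∆S, again 0 of 66 genes were called, against 0.0662% of all genes, with 5 at an unadjusted p below 0.05 (10.3% of all genes) and a median of 0.02. *ND-18* had the smallest p there, with all 3 AD + Yip7 samples above all 3 AD + Yip7∆S samples, a fold change of 0.38 ± 0.09 (SE) and an interval of 0.19 to 0.57. Its edgeR adjusted p was 0.163, whereas DESeq2 gave 0.00640 on all 12 samples and 0.0346 on the 6 samples. The 3 comparisons among the Aβ42 groups share samples, so their values are not independent of each other.

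Against Control, both Yip7 groups gave estimates below 0 for nearly all main subunit genes, and few were called. In AD + Yip7 vs. Control, edgeR called 2 of 66 genes, *COX4L* (−1.76 ± 0.47) and *COX7AL* (1.56 ± 0.39; SE), against 14.6% of all genes. Of the 60 main subunit genes 59 were below 0, with a median of −0.14, ranging by complex between −0.16 for complex I and −0.10 for complex IV. For 38 of the 60 all AD + Yip7 samples were below all Control samples, and for 0 all were above. Of all 10577 tested genes, 1967 were below in this way and 2253 above, which together is 39.9%. AD replicate 3 and AD + Yip7∆S replicate 3 are in neither of these groups but enter the shared estimate of the spread. Without them 15 genes were called, 14 lower, as 20.9% of the subunit genes against 10.1% of all genes, and 11 were called when edgeR was run on the 6 samples alone. With the length trend taken out 23 were called, 22 of them lower, which is 33.3% of the subunit genes against 8.11% of all genes. The AD + Yip7 libraries have a shallower length trend of their own, so this setting changes their values as well as the spread. Without Control replicate 2 or AD + Yip7 replicate 2 no gene was called, and 1 was without Control replicate 1, Control replicate 3 or AD + Yip7 replicate 3. The shares of all genes called in these fits and on the 6 samples are not given here.

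In AD + Yip7∆S vs. Control, edgeR called 8 of 66 genes, 7 lower and *COX7AL* higher (2.20 ± 0.38, SE), against 18.9% of all genes, with 7.94% called lower. The lower ones were *COX4L* (−2.94 ± 0.52), *ND-18* (−0.53 ± 0.09), *SdhA* (−0.36 ± 0.08), *UQCR-C2* (−0.35 ± 0.10), and the complex I genes *ND-75* (−0.39 ± 0.12), *ND-39* (−0.35 ± 0.09) and *ND-24* (−0.34 ± 0.10; all SE). *ND-75* and *ND-24* encode iron-sulfur subunits of the electron input module, and *ND-39* an accessory subunit. The median over the main subunit genes was −0.16, ranging by complex between −0.20 for complex III and −0.14 for complex IV, and 56 of 60 were below 0. Of these 6 called main subunit genes, 4 are also the 4 of the 60 that were lowest, within their group, in AD + Yip7∆S replicate 3. They are *ND-18* (768 exonic bases), *ND-24* (1064), *ND-75* (2634) and *UQCR-C2* (1686). *ND-75*, for example, was at 353, 341 and 269 CPM in AD + Yip7∆S and at 390, 452 and 419 CPM in Control. Leaving out libraries moved the count in both directions. Without AD + Yip7∆S replicate 3 alone 29 genes were called, 28 of them lower, and without AD replicate 3 as well, which is in neither group, 49 were, 48 of them lower. These shares called lower were 41.8% and 71.6% of the tested subunit genes, against 7.15% and 10.2% of all genes. These 49 included all 4 complex II genes, 24 complex I genes and 9 ATP synthase genes. With the length trend taken out 34 were called, 33 of them lower, against 10.5% of all genes called lower, and 33 of the 34 were among the 49. Without AD + Yip7∆S replicate 2 or Control replicate 2, however, 4 genes were called, and 5 without Control replicate 1. For these last fits the share of all genes called is not given here.

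Other genes of the pathway were taken from lists chosen with results of these data known. Of all tested genes, 11.6% were called lower in AD vs. Control and 7.94% in AD + Yip7∆S vs. Control. Of 9 further nuclear subunits and cytochrome c genes, including *blw* (ATP synthase α), none was called in AD vs. Control. Their median was −0.06 on the log2 scale, and *blw* was nearest at −0.24 (edgeR adjusted p = 0.0830). In AD + Yip7∆S vs. Control 2 of the 9 fell, *Cyt-c1* (−0.29), the cytochrome of complex III, and *Cyt-c-p* (−0.31), the somatic cytochrome c. With the length trend taken out 5 of the 9 were called lower in AD vs. Control and 5 in AD + Yip7∆S vs. Control, and without the 2 libraries 0 and 7 were. The shares of all genes called lower were 13% and 10.5% with the trend taken out, and 12.7% and 10.2% without the 2 libraries. Of 11 tested genes encoded in mitochondrial DNA none was called in any of the 6 comparisons, and none under either of these settings. On the log2 scale, AD differed from Control by a median of 0.24 over these 11 genes, AD + Yip7 from AD by −0.33, and AD + Yip7∆S from AD by 0.20. Without the 2 libraries this last median was −0.49, so its direction turned. Their share of all counts varied widely within groups, 4.34% to 6.03% in AD, 4.04% to 4.85% in AD + Yip7, 3.57% to 7.29% in AD + Yip7∆S and 3.08% to 7.62% in Control. Of 8 assembly factor genes, *Cox10*, a heme A synthesis enzyme, fell in AD (−0.31; edgeR adjusted p = 0.0380), and of 6 carrier genes, the phosphate carrier *Mpcp1* fell (−0.50; edgeR adjusted p = 0.0357). None of 6 regulator genes was called in AD vs. Control, among them *srl*, the fly PGC-1 homolog (0.38; edgeR adjusted p = 0.157), and *ewg*, the fly NRF-1 homolog (−0.28; edgeR adjusted p = 0.0649). *srl* was called higher in AD under both of these settings. No gene of these lists was called in AD + Yip7 vs. AD or in AD + Yip7∆S vs. AD.

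Marker genes of head cell types also differed between the groups, and their part in the subunit values was not tested. Of 9 neuronal markers 4 were called lower in AD vs. Control, and their summed level was 1933 to 2616 CPM in AD, 2543 to 2849 CPM in AD + Yip7, 2383 to 2757 CPM in AD + Yip7∆S and 3131 to 3413 CPM in Control. Of 6 glial markers 5 were lower in AD, with a sum of 1323 to 1335 CPM in AD, 1379 to 1670 CPM in AD + Yip7, 1443 to 1617 CPM in AD + Yip7∆S and 1623 to 1902 CPM in Control. Of 8 photoreceptor markers 1 was lower in AD, which is 12.5%, close to the share of all genes. The sum was lowest in AD at 55814 CPM and highest in Control at 80790.4 CPM, with overlap between all groups. Of 6 fat body markers 3 were lower in AD vs. Control, where 11.6% of all genes were called lower. In AD + Yip7 vs. AD 3 of the 6 were higher, where 1.81% of all genes were called in either direction. The fat body sum was 75880.7 to 80183.5 CPM in AD, 108971 to 126032 CPM in AD + Yip7, 94128.4 to 97969.6 CPM in AD + Yip7∆S and 96970.1 to 106489 CPM in Control. The sum in AD + Yip7 thus lay above Control, but the genes did not share a direction. In AD + Yip7 vs. Control 3 of the 6 had estimates above 0 and 3 below, the lowest −2.13 for *Lsp2*, and 0 were called. Of 12 muscle markers 1 was higher in AD vs. Control, which is 8.33% and below the share of all genes. In AD + Yip7∆S vs. Control 5 of the 12 were lower, against 7.94% of all genes. The muscle sum was 6011 to 6327 CPM in AD, 4537 to 5627 CPM in AD + Yip7, 4343 to 4809 CPM in AD + Yip7∆S and 5246 to 6068 CPM in Control. The 6 digestive protease genes were all called higher in AD vs. Control, 2 were lower in AD + Yip7 vs. AD and 5 were lower in AD + Yip7∆S vs. AD, where 1 was without the 2 libraries. Their sum was 227 to 299 CPM in AD, 0.265 to 78.8 CPM in AD + Yip7, 0.233 to 7.40 CPM in AD + Yip7∆S and 0.266 to 3.31 CPM in Control. In AD + Yip7 vs. Control 2 neuronal, 4 glial, 1 photoreceptor and 1 muscle marker were lower and 2 proteases higher, against 14.6% of all genes called. In AD + Yip7∆S vs. Control 3 neuronal and 2 glial markers were also lower, where 7.94% of all genes were called lower. Among the Aβ42 groups, *Act57B* was lower in AD + Yip7 vs. AD. In AD + Yip7∆S vs. AD *alrm* and *apolpp* were higher and *Act88F* lower. In AD vs. Control, taking the length trend out gave 5 neuronal, 6 glial, 1 photoreceptor and 5 fat body markers lower, and leaving out the 2 libraries gave 5, 5, 2 and 3. Of all genes, 13% and 12.7% were lower there. All markers of these lists passed the count filter, so none of them was at 0 throughout.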

How the data were processed

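Poly(A) RNA of 12 head samples was sequenced. According to the paper, reads were filtered with fastp, aligned with HISAT2 and assigned to genes with HTSeq-count. The submitters' processing notes (build dm6) name FastQC, HISAT2 2.1.0, StringTie 1.3.1 and DESeq2 1.36.0. The tools listed there do not include fastp or HTSeq-count. The deposited values are raw counts of 14162 genes, without normalization. The HTSeq version, the annotation and the strand setting are not given in the sources used here, and the paper and the labels name different library kits and sequencing providers.

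The deposited counts were tested with edgeR 4.0.16 under R 4.3.3, and filterByExpr kept 10577 genes. TMM normalization was applied and all 12 samples entered 1 quasi-likelihood fit without covariates (glmQLFit, glmQLFTest). The 6 comparisons between groups were tested, with Benjamini-Hochberg adjustment over all tested genes within each, and genes below 0.05 are called. Fold change and F statistic gave standard errors and intervals. RPKM divides TMM-adjusted CPM by the union of exons in the Ensembl BDGP6.54 annotation (release 115, dm6 coordinates), in which 13934 symbols were found by name. The script was tested on simulated data. Depth was 38064884 to 41737332 counts per sample. The p-values rest on the spread between samples within groups, estimated in 1 fit over all 4 groups.

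The 79 genes and all gene lists were chosen with earlier results of these data known. Named by rule were, for each complex, the gene with the highest mean CPM and in each direction up to 3 called genes of lowest adjusted p in AD vs. Control, any gene called among the Aβ42 groups, and the genes under the filter. Others were named after their values were seen, as extremes of a set or as calls against Control. Alternatives were DESeq2 1.42.0, other normalizations and filters, a replicate block, and leaving out samples. Taking the length trend of each library as an offset, and leaving out AD replicate 3 and AD + Yip7∆S replicate 3 together, were added after the data had been seen. The trend is a lowess, on log2 exonic length, of each gene's log2 deviation from its mean over the 12 samples. No sequence is printed, because no sequence table was used here.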

Additional observations from a re-analysis of the deposited data

How the results depend on the processing

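The median standard error of the main subunit genes was 0.11 on the log2 scale, and differences well above it could go uncalled with 3 samples a group. In AD vs. Control *ND-49* (−0.20), *ND-75* (−0.24) and *ND-AGGG* (−0.26) were not called, while *SdhA* (−0.29) and *ND-18* (−0.32) were. *COX4L* and *COX7AL*, with at most 36 and 47 counts in a library, were not tested with at least 10 counts in every sample. For 8 named genes in 4 comparisons, 565 values were recomputed under the alternatives, of which 550 kept their side of the threshold, 11 lost a call and 4 gained one. The sign turned in 23 of them, none of which was called with all 12 samples or under the alternative, as for *UQCR-C1* in AD vs. Control (−0.08 to 0.08).

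In AD vs. Control, 4 genes were called with all 12 samples. The count was 2 with upper quartile normalization, which moved the median of all genes to 0.06, 2 with at least 10 counts in every sample, 25 with the length trend taken out and 11 without the 2 libraries with the steepest trend. Leaving out 1 sample gave 2 to 4. *ND-18* was called under 14 of 18 settings (adjusted p 0.00182 to 0.0716), *SdhA* under 11 of 18 (0.000857 to 0.0958), and *COX4L* and *COX7AL* under all 17 that tested them. *SdhA* was also lost without a count filter (edgeR adjusted p = 0.0518). *ND-51* and *COX4* were called with the length trend taken out and under none of the other 17 settings.

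In AD + Yip7 vs. AD no gene was called except 1 by DESeq2 on 6 samples, in AD + Yip7∆S vs. AD none except 1 by DESeq2 on 12 samples, and in AD + Yip7 vs. AD + Yip7∆S none except 1 by each DESeq2 fit. Leaving out 1 sample gave 0 in all 3. In AD + Yip7 vs. Control, 2 genes were called. The count was 0 with at least 10 counts in every sample, 5 and 15 by DESeq2 on 12 and 6 samples, 11 by edgeR on 6 samples, 23 with the length trend taken out and 15 without the 2 libraries, and 0 to 2 on leaving out 1 sample. In AD + Yip7∆S vs. Control, 8 genes were called. The count was 5 with upper quartile normalization, 14 by DESeq2 on 12 samples, 34 with the length trend taken out and 49 without the 2 libraries, and 4 to 29 on leaving out 1 sample. For most of these settings, those of AD vs. Control included, the share of all genes called is not given here. That share moves with the setting too, so these counts alone do not set the subunit genes apart from other genes. The cause of these differences in count was not tested.

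The replicate numbers do not pair the samples. The deviations of same-numbered samples from their group means correlated with r of −0.39 to 0.29, and in 13 of 36 cases a sample's best correlate in another group had its own number. None of the 12 samples correlated best with its own number in every other group. With the replicate block, 4 genes were called in AD vs. Control, 2 in AD + Yip7 vs. Control, 7 in AD + Yip7∆S vs. Control and 0 in the other 3 comparisons.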

Other observations

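Other gene groups of the mitochondria and of translation gave different values in the same libraries. The mitochondrial ribosomal protein genes (symbols starting with mRpL or mRpS), which make the machinery that translates the mitochondrially encoded subunits, differed between AD and Control by a median of 0.03 on the log2 scale over 72 tested genes. Of these 2 were called higher and 2 lower, where 14.4% of all tested genes were called higher and 11.6% lower. With the length trend taken out the median was −0.12, with 1 called higher and 8 lower, and without AD replicate 3 and AD + Yip7∆S replicate 3 it was −0.04, again with 1 higher and 8 lower. The cytosolic ribosomal protein genes (symbols starting with RpL or RpS) differed between AD and Control by a median of 0.50 over 86 tested genes, with 71 called higher and 0 lower. With the length trend taken out their median was 0.37 with 65 called higher, and without the 2 libraries it was 0.44 with 79 called higher. In AD + Yip7 vs. AD their median was −0.32 with 0 called by edgeR and 58 at an unadjusted p below 0.05, as had 13.1% of all genes, and in AD + Yip7∆S vs. AD it was −0.25 with 0 called and 19 at an unadjusted p below 0.05, as had 15.1% of all genes. Without the 2 libraries 3 and 1 of them were called lower in these comparisons. The main subunit genes had medians of −0.06, −0.06 and −0.09 in the 3 comparisons. The difference between these groups was not tested.

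In AD + Yip7∆S replicate 3, *ATPsynbeta* was at 1406 CPM, against 1053 and 1064 CPM in the other samples of that group, while *ND-75* was at 269 CPM, against 353 and 341 CPM. Within that library the main subunit genes thus moved in both directions relative to their group, with 56 of 60 highest there and 4 lowest.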
